A study of Mus musculus with 6 samples.

Results

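The EWI immunoglobulin family comprises the 4 genes Igsf3, Ptgfrn, Cd101 and Igsf8, which are 4 of the 21755 protein-coding genes of the GENCODE M21 annotation of mm10. They are described here by the H3K4me1 peaks that surround them in whisker pads of mouse embryos at embryonic day 12. H3K4me1 denotes monomethylation of lysine 4 on histone H3. CUT&Tag reads such a mark by tethering a transposase to the bound antibody and sequencing the DNA fragments that are cut out. Each of the 3 H3K4me1 samples was a single-cell suspension of 1 freshly dissected wild-type pad of strain B6/J2, and the number of the pad in the sample title serves as the replicate number (1 to 3). A pad holds mesenchyme, surface ectoderm and other cells together, and the mark was not assigned to any one of them. The source name of replicates 2 and 3 is adult kidney instead of whisker pad, and the titles were followed. Samples made with IgG, 3 in number, were not used here, and the values therefore stand without a measured background.

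A peak was given to a gene when it overlapped the gene body with 5 kb on each side, or when it lay up to 100 kb away and the nearest protein-coding start site was that gene's. By this rule the 4 genes received 15 of 16788 peaks in replicate 1, 14 of 12969 in replicate 2 and 14 of 13998 in replicate 3. Merging overlapping peaks of the replicates gave 16 regions out of 19251. The family was chosen by the total signal and length of the region over Igsf3, which an earlier description of the same lists had placed among the strongest, so the size and rank of that region are a description and carry no test. With 1 group of 3 samples, no other value was tested either. Errors are the SD over the 3 pads, and whether these came from different embryos is not given in the labels.

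EWI proteins are named after the Glu-Trp-Ile motif in one of their immunoglobulin domains. They cross the plasma membrane once and sit beside tetraspanins, the membrane organizers that gather integrins and signalling receptors into patches. Through their short tails some members also touch ezrin, radixin and moesin, which anchor the membrane to actin, and so they bear on cell adhesion, migration and membrane shape. H3K4me1 is found at enhancers, whether active or poised, and on the flanks of active promoters, whereas the centre of an active promoter usually carries the trimethylated form instead.

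Igsf3, a member with a long extracellular part that has been linked to the tetraspanin Tspan7 in neurons, lies at chr3:101377083-101463059 on the plus strand (ENSMUSG00000042035.11; 85977 bp, 11 exons). Its H3K4me1 was dominated by a single region at chr3:101377499-101412573, which was 35075 bp long and ranked 14 by length among the 19251 merged regions. The median region measured 3649 bp, 121 regions reached 20 kb and 32 reached 30 kb. Intron 2 contained 97.2% of the region, and 72.6% of that 46958 bp intron was covered. Exon 2 lay inside the region with all of its 687 bp, and 0.875% of the region fell in intron 1. GC content was 49.1% and repeats made up 13.9% of the bases.

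The region was a single peak of 34714 bp in replicate 1 and of 35043 bp in replicate 2. In replicate 3 it was split by a gap of 1029 bp into a peak of 24957 bp and one of 8398 bp. Its total signal, the sum of the fragment pileup over its bases, was 1566875 in replicate 1, 1904696 in replicate 2 and 1186434 in replicate 3, of which the longer piece gave 986845. These sums are not scaled to depth and can be compared only through ranks or shares. The strongest peak of the region ranked 5 in replicate 1, 3 in replicate 2 and 4 in replicate 3 by total signal, and ranked 1 among the 906, 655 and 905 peaks of chromosome 3. In each pad the region was therefore among the few strongest of the list. Its total was 56.8, 42.4 and 28.1 times the list median in replicates 1, 2 and 3 (42.4 ± 14.3, SD, n = 3), counting the longer piece alone in replicate 3.

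Length accounted for part of this sum, and the pileup per base was also above the median peak. Mean pileup over the covered bases of the region was 4.54, 4.13 and 3.23 times that of the median peak (3.96 ± 0.671, SD, n = 3). By maximum pileup the strongest peak stood at ranks 38, 10 and 46, lower than by total signal in every replicate. The region held 0.191, 0.193 and 0.159% of all peak signal (0.181 ± 0.0188%, SD, n = 3) and 4.09, 4.38 and 2.60% of that on chromosome 3 (3.69 ± 0.954%). Replicate 3 was the lowest in each of these shares, and the other pads were close to each other.

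**Figure D1:**
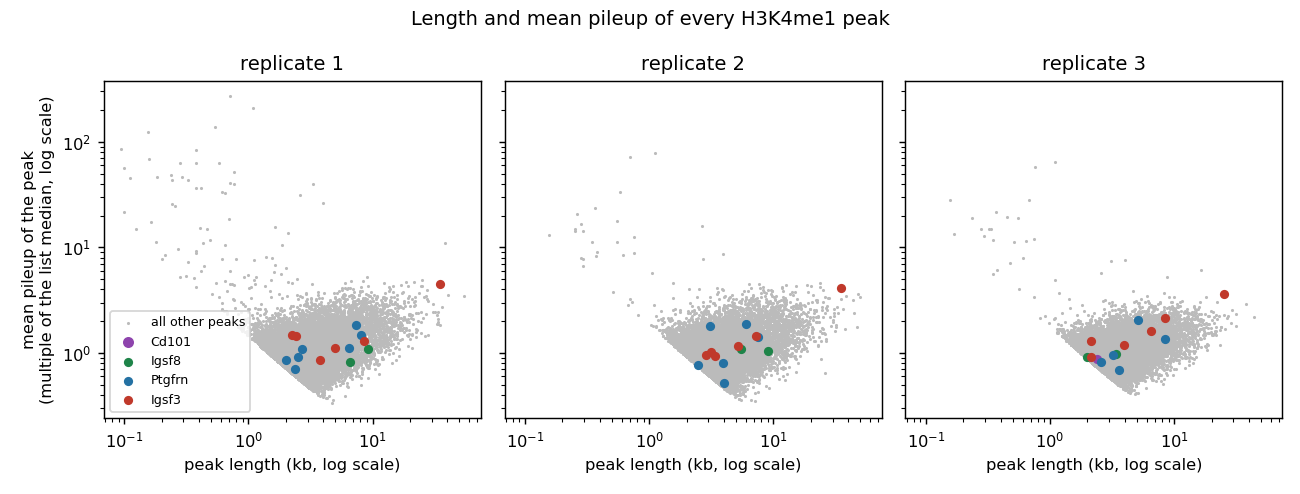
Each grey point is a peak, with its length in kb on the horizontal log axis and its mean pileup as a multiple of the list median on the vertical log axis, 1 panel per replicate. Coloured points are the peaks given to the 4 genes, and the rightmost red point, at 34.7, 35.0 and 25.0 kb, is the strongest Igsf3 peak.

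The highest pileup of the region lay at base 101396678 in replicate 1, at 101396682 in replicate 2 and at 101398024 in replicate 3, all in intron 2 and within 1346 bp of each other. By comparison, the median range was 513 bp over the 8917 regions present in all replicates. The maximum of the Igsf3 region was 464, 492 and 193 fragments deep in replicates 1, 2 and 3. The windows with 100 bp on each side of these places are printed because they are the centre of the strongest peak of the family. They are read 5′ to 3′ on the plus strand of GRCm38 (mm10, RefSeq assembly GRCm38.p6), at chr3:101396578-101396778 for replicates 1 and 2 and at chr3:101397924-101398124 for replicate 3, and capitals mark the bases at the highest pileup.
Igsf3 intron 2, replicates 1 and 2: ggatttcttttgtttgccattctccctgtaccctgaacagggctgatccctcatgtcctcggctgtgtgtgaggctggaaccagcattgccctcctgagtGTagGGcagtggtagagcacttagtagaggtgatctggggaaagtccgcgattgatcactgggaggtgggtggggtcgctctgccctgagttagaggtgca
Igsf3 intron 2, replicate 3: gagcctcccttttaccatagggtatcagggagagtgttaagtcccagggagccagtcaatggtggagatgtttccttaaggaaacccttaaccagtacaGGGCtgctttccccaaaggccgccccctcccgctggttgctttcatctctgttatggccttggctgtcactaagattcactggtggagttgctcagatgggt
The first window has a GC content of 55.7% with 10.9% of repeats, and the second 52.7% with 0% of repeats. For comparison, the median GC content of such windows over all peaks was 53.2, 53.7 and 47.8% in replicates 1, 2 and 3.

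The main Igsf3 start site itself carried no peak. Counted from the main start site at 101377083, the region began 777, 416 and 748 bp downstream in replicates 1, 2 and 3. A second annotated start site of Igsf3, at 101378338, lay inside it. In the 300 bp promoter window of RefSeq, which runs from 250 bp before to 50 bp after the start, 35 CpG were counted (observed to expected ratio 0.864), and 92.0% of 16433 promoters had as many or fewer. The median promoter held 14 CpG. A peak overlapped this window in 0 of 3 replicates for Igsf3, and 1.87% of all promoters had one in every replicate.

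The next stretch of marked chromatin upstream lay at chr3:101364205-101373041, with its highest pileup at -7.29, -7.40 and -6.65 kb from the start (negative values are upstream). Its total signal was 108565, 135523 and 116018, at percentiles 91.9, 88.7 and 92.2 of the lists, where a percentile is the share of peaks with the same total or less. This peak ran across the edge of the 5 kb flank. In replicate 1 it ended 4042 bp before the start and was counted over the gene, whereas in replicates 2 and 3 it ended 5677 and 6232 bp before and was given to Igsf3 by the nearest start site. A further region upstream, chr3:101346324-101351718, was present in all 3 replicates at -27.6, -27.6 and -27.0 kb from the start (percentiles 78.1, 74.5 and 70.2).

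Behind the wide region, 3 smaller regions followed within the gene. The first, still in intron 2 at chr3:101414377-101418139, was called in replicates 1 and 2 and not in replicate 3. Intron 6 carried one at chr3:101435111-101438487 in all 3 replicates, at percentiles 60.5, 45.2 and 11.1. Another covered the noncoding part of exon 11, the last exon, at chr3:101460653-101463822 in all 3 replicates, at percentiles 58.9, 46.5 and 41.2. None of the 3 exceeded percentile 60.5, and the intron 6 peak of replicate 3 belonged to the weakest of that list. The Igsf3 signal outside the wide region was small beside that region. Over the whole gene with its flanks, 5, 4 and 4 peaks covered 50.2, 50.8 and 43.8% of the gene body (48.2 ± 3.88%, SD, n = 3).

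Ptgfrn encodes a membrane protein that binds Cd9 and Cd81 and was named as a negative regulator of the prostaglandin F receptor. It lies at chr3:101040232-101110278 on the minus strand (ENSMUSG00000027864.9; 70047 bp, 9 exons), with its start site at -267 kb from that of Igsf3. It received 7, 6 and 5 peaks in replicates 1, 2 and 3, beside 6 in each for Igsf3, and these were spread over 7 regions from intron 4 to about -51.8 kb. None resembled the wide region of Igsf3 in length, the longest being 8477 bp. Of the 7 regions, 4 were present in all 3 replicates, beside 8917 of the 19251 merged regions of the whole series.

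The strongest region within Ptgfrn was in intron 4, at chr3:101066888-101075364. Its total signal was 117233 in replicate 1, 140520 in replicate 2 and 124547 in replicate 3 (percentiles 92.7, 89.3 and 93.1). The place of highest pileup was almost the same in the 3 pads, at bases 101070592, 101070578 and 101070595, a range of 17 bp. Over the 8917 regions present in all replicates the median range was 513 bp, and 7.96% had a range of 20 bp or less.

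A second strong region, chr3:101159179-101166811, lay upstream of Ptgfrn with its highest pileup at -51.8, -51.8 and -51.5 kb from the start site. Its total signal was 134607, 148219 and 115408 (percentiles 94.1, 90.1 and 92.1). Its maximum pileup was 215, 165 and 77, at percentiles 99.2, 97.8 and 91.9, so it was tall in replicates 1 and 2. Both places are shown, with 100 bp on each side, because they have the highest pileup of the Ptgfrn regions, at chr3:101070492-101070692 and chr3:101161932-101162132. They are again on the plus strand of GRCm38, 5′ to 3′, with the bases of highest pileup in capitals.
Ptgfrn intron 4, replicates 1 to 3: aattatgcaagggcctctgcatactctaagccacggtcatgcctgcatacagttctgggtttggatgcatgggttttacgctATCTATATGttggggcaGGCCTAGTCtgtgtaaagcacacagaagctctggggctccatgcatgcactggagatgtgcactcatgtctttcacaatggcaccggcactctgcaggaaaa
Ptgfrn upstream, replicates 1 and 2: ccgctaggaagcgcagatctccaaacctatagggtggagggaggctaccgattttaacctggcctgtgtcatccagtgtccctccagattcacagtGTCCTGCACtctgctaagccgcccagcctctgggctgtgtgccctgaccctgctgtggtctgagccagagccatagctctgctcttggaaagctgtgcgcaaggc
Their GC contents are 50.2 and 58.7%, and repeats make up 0% of both.

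The Ptgfrn promoter, with 44 CpG in 300 bp (observed to expected ratio 0.997), was flanked by H3K4me1 on both sides. Replicate 1 had a single peak across the start site, with its highest pileup 2308 bp inside the gene. In replicates 2 and 3 the same region, chr3:101106432-101114336, was divided into 2 peaks with the start site between them, and the peak on the upstream side began 48 and 224 bp from the start. The highest pileup fell on base 101107970 in replicates 1 and 2 and on 101108523 in replicate 3. The remaining Ptgfrn regions were weaker. One at -19.6, -19.6 and -19.7 kb was present in all 3 replicates, one at -34.5 kb in replicates 1 and 2, and those at -26.3 kb and in intron 1 in replicate 1 alone.

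Cd101, which is known from T cells and myeloid cells and restrains T cell activation, lies next to Ptgfrn at chr3:100993529-101029556 on the minus strand (ENSMUSG00000086564.9; 36028 bp, 9 exons). It received 0 peaks in replicates 1 and 2 and 1 in replicate 3. That peak, chr3:101005801-101008173, was 2373 bp long with its highest point in intron 7, and it reached a total of 22973 pileup units (percentile 17.7) with a highest pileup of 24. It thus belonged to the weakest peaks of that list. The Cd101 promoter had 4 CpG in 300 bp, and 27.3% of promoters had as many or fewer. Of 6 leukocyte markers, among them Ptprc and Spi1, 0 had a peak in any replicate, beside the 19.6 to 24.9% of all genes with one in a single replicate, so 0 of so few genes says little.

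Igsf8, which binds Cd9 and Cd81 and is broadly expressed, is the only member outside chromosome 3, at chr1:172261641-172319841 on the plus strand (ENSMUSG00000038034.15; 58201 bp). Its main start site is at 172312367 and its main transcript has 7 exons. The annotated gene is longer because 1 transcript begins far upstream of that site. Igsf8 received 2 peaks in each replicate, and its own start site was the nearest for 1 of them, which is described here. The other is included in the sums for the gene and is not described singly.

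The peak nearer to the main start site of Igsf8 lay in the region chr1:172305538-172314696, with its highest pileup at -2.06, -2.07 and -1.92 kb from it. The total signal was 53214, 78316 and 36692 (percentiles 76.8, 74.4 and 52.6), and the maximum 73, 96 and 64. For Igsf3 no replicate had a peak in the 300 bp promoter window. For Igsf8 a peak overlapped the window, chr1:172312117-172312416, in 3 of 3 replicates. In replicates 1 and 3 the overlap was only at its edge, as the peaks ended at 172312136 and 172312181, before the main start site. In replicate 2 the peak ran across the window to 172314696. That window has 25 CpG (observed to expected ratio 0.656). The 100 bp on each side of the highest pileup, chr1:172310204-172310404, stand here for comparison with those of Igsf3, on the plus strand of GRCm38 with the bases of highest pileup in capitals.
Igsf8 before the main start site, replicates 1 and 2: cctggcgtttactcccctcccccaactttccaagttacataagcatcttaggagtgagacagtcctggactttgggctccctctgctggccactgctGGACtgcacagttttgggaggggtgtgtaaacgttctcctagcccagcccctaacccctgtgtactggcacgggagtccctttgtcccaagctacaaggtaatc
This window has a GC content of 55.2% and 11.4% of repeats.

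For this Igsf8 peak the log2 ratio of its share of list signal in replicate 3 to that in replicate 2 was -0.69, beside a median of -0.61 over regions of like GC content. For the other peak given to Igsf8 the log2 ratio was -2.23 beside a median of -0.60, and 0.235% of the 850 regions of like GC content had a ratio as low or lower, so the low Igsf8 sum of replicate 3 came mostly with that peak. For the wide Igsf3 region the log2 ratio was -0.28 beside -0.18.

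Of the 4 members, 3 had a peak over the gene body or its 5 kb flanks in every replicate, namely Igsf3, Ptgfrn and Igsf8. Across all protein-coding genes this held for 15.5%, and for 24.9, 22.6 and 19.6% in replicates 1, 2 and 3 taken singly, where the members counted 3, 3 and 4. Long genes have more room for a peak, and among the 1152 genes whose length was within 1.2 times that of Igsf3 27.8% had one in every replicate. Igsf3, Ptgfrn and Igsf8 also had a peak in all replicates at most 1 kb from one of their start sites, which held for 6.18% of protein-coding genes. As the family was chosen through the Igsf3 region, these counts are a description of the members.

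Igsf3 stood well above the other members in signal. Peaks over Igsf3 and its flanks held 0.216, 0.205 and 0.166% of all peak signal (0.196 ± 0.0260%, SD, n = 3), rank 32 among the 3374 genes with a peak in every replicate. For Ptgfrn the share was 0.0249, 0.0244 and 0.0250% (0.0248 ± 0.000314%), rank 849, with the smallest SD of the 3 genes. Igsf8 had 0.0186, 0.0205 and 0.00760% (0.0156 ± 0.00697%), rank 1318, with replicate 3 well below the others. Cd101 had 0, 0 and 0.00309%. The ranges of Igsf3, Ptgfrn and Igsf8 did not overlap. As the family was chosen through the signal and length of the Igsf3 region, the place of Igsf3 above the others is a description and was not tested.

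Within each pad, where depth cancels, the signal over Igsf3 was 11.6, 10.02 and 21.9 times that over Igsf8, a mean log2 ratio of 3.77 ± 0.60 (SD, n = 3). The high value of replicate 3 came with the low share of Igsf8 in that pad, mostly at the peak for which another start site is nearer. Counting for Igsf8 only the peak whose nearest start site is its own, a choice made after the data were seen, gave 33.4, 25.8 and 33.8 times. The Igsf3 signal was 8.67, 8.42 and 6.66 times that over Ptgfrn (7.92 ± 1.09, SD, n = 3). With the distal peaks given to each gene included, it was 4.49, 4.92 and 4.33 times that of Ptgfrn (4.58 ± 0.305, SD, n = 3), since the upstream regions of Ptgfrn add more to its sum. In covered bases instead of signal, the log2 ratio of Igsf3 to Igsf8 was 2.04.

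**Figure D2:**
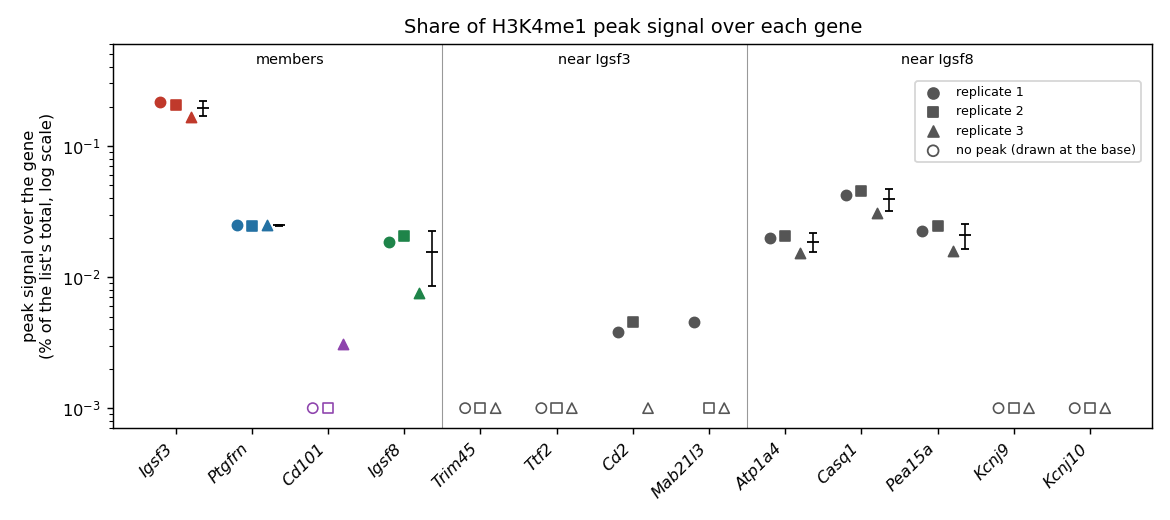
The vertical log axis gives the peak signal over each gene with 5 kb on each side, as a percent of the total signal of its list, for the 4 members and selected neighbours. Symbols are replicates, the bar is the mean with the SD of 3 where every replicate had a peak, and open symbols at the base mark genes with no peak. Igsf3 lies at 0.166 to 0.216%, above every other gene drawn.

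On chromosome 3, 7 other protein-coding genes have a start site within 500 kb of that of Igsf3, and 2 of these, Ptgfrn among them, had a peak in all 3 replicates (28.6%, beside 15.5% of all genes). Against the neighbour with the highest signal in each pad, the mean log2 ratio was 2.94 ± 0.26 (SD, n = 3), and 1.52 when covered bases replaced signal. Cd2, a T cell adhesion gene, had a peak in replicates 1 and 2 alone, and Mab21l3 in replicate 1 alone. Trim45 and Ttf2 had none, and the median share over the 7 genes was 0.00153%. Taking replicate 1 by itself, 4 of the 7 neighbours carried a peak, beside 24.9% of all genes.

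**Figure D3:**
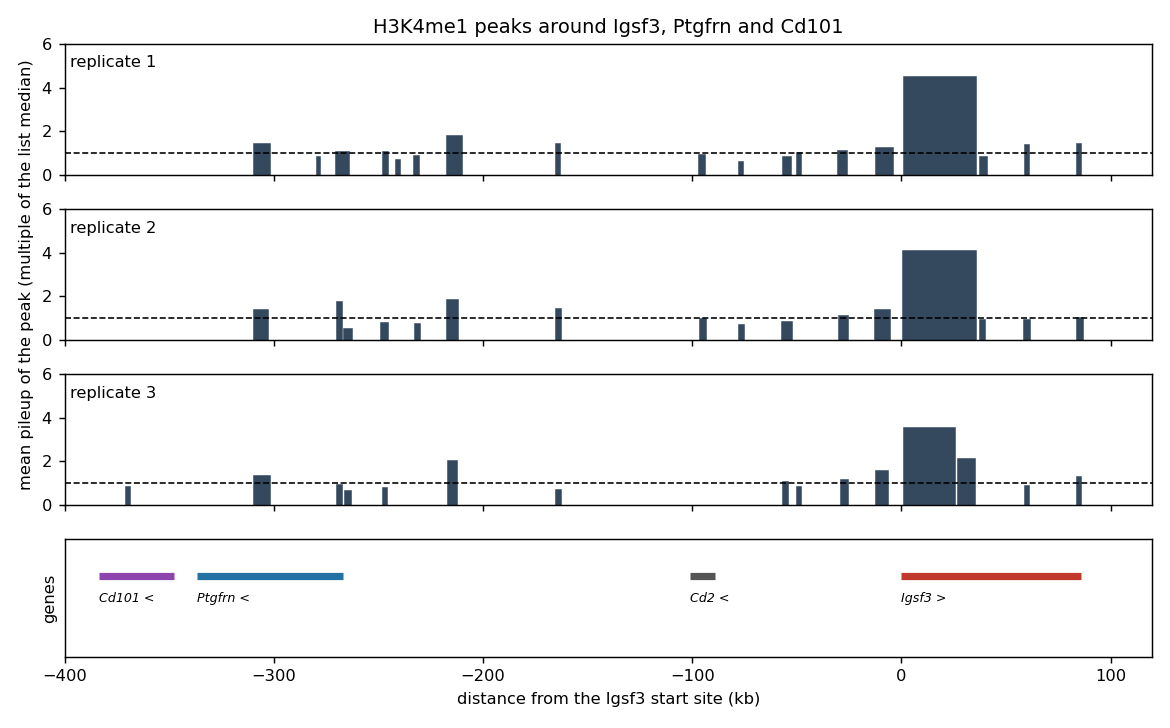
Peaks in the interval around Igsf3, with the distance from its start site in kb on the horizontal axis, each bar being a peak with its true length and with its mean pileup as a multiple of the list median as height (dashed line, 1). Arrowheads beside gene names give the direction of transcription. The wide Igsf3 peak stands at 4.54 and 4.13 times the median in replicates 1 and 2 and is split in replicate 3.

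Around Igsf8 on chromosome 1, which has more genes, none was marked as strongly as Igsf3. The latter had been chosen through the signal and length of its region, so this is a description. Of 26 genes with a start site within 500 kb of the annotated 5′ end of Igsf8, 10 had a peak in all 3 replicates (38.5%, beside 15.5% of all genes), and 6 when the 5 kb flanks were left out, where the neighbours of Igsf3 still counted 2 of 7. The difference between the surroundings was not tested. Many of these genes lie close together and share peaks, so they do not count as separate events. Among the 10 were Vangl2, Nhlh1, Casq1, Igsf9 and Tagln2, and Cfap45 and Vsig8 had a peak in replicates 1 and 2. The other 14 had none. Casq1, a calcium-binding protein of the muscle sarcoplasmic reticulum, had the highest share of these genes with 0.0423, 0.0452 and 0.0308%, from 2 peaks that it shares with the genes on either side.

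The surroundings of Igsf3 and Igsf8 hold several pairs of related genes, which allowed a comparison of like with like. For the planar cell polarity genes the shares were 0.0342 ± 0.00326% (SD, n = 3) for Vangl1 and 0.0272 ± 0.00494% for Vangl2. The shares of the calsequestrin genes lay further apart, with 0.00935 ± 0.000745% for Casq2 on chromosome 3 and 0.0394 ± 0.00760% for Casq1 on chromosome 1. The Casq1 share comes from the peaks it shares with the genes on either side. Nhlh2, a neuronal helix-loop-helix factor gene, had no peak in any replicate and Nhlh1 had 0.00655 ± 0.00315%. Cd2 had a peak in 2 replicates and Cd48 in 0.

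Genes for known partners of the EWI proteins carried peaks in most cases. Of 11, 7 had a peak in every replicate (63.6%, beside 15.5% of all genes). These were the tetraspanin genes Cd9, Cd81, Cd82 and Cd151, the integrin alpha genes Itga3 and Itga4, and Ezr, which encodes ezrin. Rdx (radixin) had a peak in replicate 3 alone, and Tspan7, Msn (moesin) and Itgb1 had none. The median share of signal over the 11 genes was 0.00720%, and over all protein-coding genes it was 0%. With only the stronger 50% of each list the count was 3, and with the strongest 10000 peaks of each it was 4, so many of these peaks were weak. Without the 5 kb flanks the count was 5. Cd81, Cd82, Itga3 and Itga4 had a peak in every replicate at most 1 kb from a start site, beside 6.18% of protein-coding genes. Cd9, Cd151 and Ezr did not, and their shares include any peaks in the flanks. Cd151 had the highest mean share of the 11, with 0.0207, 0.0226 and 0.00473%, and Cd9 had 0.0169, 0.0207 and 0.00897%, both lowest in replicate 3.

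Of 9 other genes with an Igsf symbol, named for their immunoglobulin domains, 2 had a peak in all 3 replicates (22.2%, beside 15.5% of all genes). These were Igsf9 with 0.0303, 0.0324 and 0.0208% and Igsf9b with 0.00856, 0.00637 and 0.00542%. Igsf11 had a peak in replicates 2 and 3 and Igsf21 in replicates 1 and 2. Igsf1, Igsf5, Igsf6, Igsf10 and Igsf23 had none, and the median share over the 9 genes was 0%.

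By share of signal and covered bases together, the genes most like Igsf3 were Rara, Vgll4, Ahdc1, Fli1 and Ebf3. Likeness was the Euclidean distance over the log10 values of both measures in the 3 replicates, and it was 0.104, 0.138, 0.169, 0.265 and 0.304 for these genes, with a median of 2.67 over the 3373 genes compared. Rara, a retinoic acid receptor gene, had 0.208, 0.217 and 0.133% of the signal, close to Igsf3. Its longest peak measured 27.4, 24.9 and 25.2 kb, against 34.7, 35.0 and 25.0 kb for Igsf3. Vgll4, a cofactor gene of the Tead factors, had 0.202, 0.213 and 0.166% with a longest peak of 27.4, 20.98 and 26.9 kb. The last in the order, Ebf3, an early B-cell factor gene, had 0.143, 0.157 and 0.120% with a longest peak of 16.2, 14.3 and 16.1 kb. The peaks over Ebf3 covered 57.7, 56.5 and 42.6 kb in all, against 44.1, 44.4 and 37.6 kb for Igsf3.

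The windows of 100 bp on each side of the highest pileup of the members' peaks shared no motif among those searched. Both strands of 40 distinct windows were searched for CTTTGAT (letters associated with TCF/LEF factors), CATCTG (basic helix-loop-helix factors), TAATTA (homeodomain factors) and GCCNNNGGC (AP-2 factors). The counts of windows with a match were 0, 1, 1 and 1. The windows come from only 16 merged regions, and several windows of the same region overlap almost fully. They are therefore not independent, and their counts were not tested against the shares over all peaks. Over all peaks the shares with a match were 2.17, 2.32 and 2.84% for CTTTGAT, 18.9, 19.2 and 18.99% for CATCTG, 2.25, 2.07 and 4.38% for TAATTA and 9.35, 9.92 and 6.53% for GCCNNNGGC in replicates 1, 2 and 3. The CATCTG match is in the replicate 3 window of Igsf3 intron 2 printed above, where it reads CAGATG on the strand shown. Absence of a match says only that these letters are not in the window.

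Markers of the tissue were checked over the same lists. Of 6 facial mesenchyme markers (Prrx1, Twist1, Msx1, Alx4, Pdgfra and Tfap2a), 6 had a peak in every replicate, beside 15.5% of all genes. Of 6 surface ectoderm markers 2 did, Trp63 and Grhl3, whereas Krt5 and Cdh1 had a peak in replicates 1 and 2 and Krt14 and Epcam in none. Of 6 adult kidney markers 1 did (16.7%, beside 15.5% of all genes, so close to the background), Slc12a1, with 0.00386, 0.00268 and 0.00323% of the signal, and Aqp2 had a peak in replicates 1 and 2, while the others, among them Umod and Slc34a1, had none. Replicates 2 and 3, whose source name is adult kidney, carried 2 and 1 of the kidney markers and replicate 1 carried 2. Total signal within peaks ranged from 744342185 to 985881531 over the replicates.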

How the data were processed

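H3K4me1 CUT&Tag of 3 whisker pads was analysed from the peak lists the authors deposited. Per the submitters' processing notes, Bowtie2 2.3, SAMtools 0.1.19, bedtools and SEACR 1.3 were used with mm10. The authors called peaks in each replicate with SEACR in stringent mode, without IgG, keeping the top 1% of signal blocks. Both deposited signal columns, total and maximum signal of a peak in units of fragment pileup, are unscaled whole numbers. The treatment of duplicate reads is not given in the sources used here. The study states a nominal sequencing depth, alike for every sample, but read numbers are not in these lists, and the depth each library reached was not used here. Parts of a region under the cutoff of a list are missing from it.

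Peaks were assigned to genes of GENCODE M21 and merged by at least 1 bp of overlap with Python 3.11.15, numpy 2.4.6 and pysam 0.24.0, and the interval functions were tested on simulated data. Signal was compared as shares, ranks and multiples of the list median. All 4 members matched a RefSeq promoter. Of peaks in more than 1 replicate, the distinct windows were counted once for motifs. Genes named were the 4 members, their neighbours within 500 kb with a peak, adjacent genes, the related pairs, 11 partners, 9 other Igsf genes, the 4 marker lists and the 5 genes most like Igsf3. The members and all lists were chosen with earlier results of these data known. Values of some listed genes are not reported here by themselves, although these genes stay in the counts.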

Additional observations from a re-analysis of the deposited data

How the results depend on the processing

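Of 96 values obtained under alternatives for 10 results, 81 stayed within the spread or within 1.5 times of a count, 15 moved and 0 reversed. A reversal was a change of sign, which only the log2 ratios could show, so 0 says nothing of the other results. For the widest region, the spread was that of the longest peak in each replicate. Its strongest peaks ranked 5, 3 and 4 by total signal, so the stronger 50% and the strongest 10000 peaks were bound to keep them. Joining peaks less than 1 kb apart could not close the 1029 bp gap of replicate 3. The unchanged length under these settings therefore says nothing about how stable it is. The Igsf3 signal share of 0.196% became 0.242% with the stronger 50% of each list and 0.0740% in covered bases, since the latter leaves out pileup. The percentile of the strongest Igsf3 peak was 99.98 by total signal, 99.96 within the stronger 50%, 99.97 within the strongest 10000 peaks, 99.97 with peaks less than 1 kb apart joined, 99.8 by maximum signal, 99.7 by total signal divided by length and 99.9 by length. Within the stronger 50% and the strongest 10000 peaks its rank cannot change, so these 2 percentiles moved only because the lists were shorter. The log2 ratio of Igsf3 to Igsf8 was 2.04 in covered bases and 4.94 with Igsf8 peaks by nearest start site, and that to the strongest neighbour 1.52 in covered bases. Neighbours of Igsf3 with a peak numbered 4 in replicate 1 alone, where 24.9% of all genes had one. Those of Igsf8 numbered 6 without flanks. EWI partners with a peak numbered 3 in the stronger 50% of each list and 4 among its strongest 10000 peaks. Leaving out each replicate in turn gave 34743 to 35075 bp for the widest region, 0.186 to 0.211% for the share and log2 ratios of 3.43 to 3.99 to Igsf8 and 2.86 to 3.09 to the neighbour. The settings replicate 1 alone and nearest start site for Igsf8 were chosen after seeing the data. No paired analysis was possible because every value comes from H3K4me1 samples alone, the IgG partners with the same numbers being not used here. The lists hold no read numbers, and no measured background was used here. Absence of a peak therefore means only that no signal block there was among the top 1% kept for that replicate.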
